A study of Mus musculus with 2 samples.

Results

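Gated cells are lung cells selected on their own measured transcripts: a cell entered when it held at least 20 gene transcripts and when its raw counts of Upk3a, Gabrp and Atp6v1b1 summed to 4 or more (the gate sum). In all, 31068 of 493524 cells (6.30%) met this rule. They came from 1 RPR2 and 1 CRPR2 lung section measured by Xenium In Situ, which images single transcripts of a chosen gene panel in fixed tissue and assigns them to segmented cells. The panel held 479 genes. Both mice carried Rb1lox/lox, Trp53lox/lox and Rbl2lox/lox alleles, which were deleted by adenoviral Cre instilled into the trachea at 10 weeks of age to induce small cell lung cancer (SCLC), and the CRPR2 mouse in addition lacked Cracd in its germline, so that its stroma and normal epithelium lacked it as well. Lungs were collected at a fixed time after Cre, and both sections lay in the same paraffin block and slide. The labels name no sex for either mouse, and they mention particles named Ad-Cracd-Cre without tying them to a section. For the tumors of its single-cell sequencing the study names adenovirus with Cre under the CMV promoter, which is active in many cell types, and the promoter used for these sections is not given in the sources used here.

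Upk3a encodes uroplakin 3a, a membrane protein of the urothelial plaque. Gabrp encodes the pi subunit of the GABA type A receptor, which is found in epithelia of several organs. Atp6v1b1 encodes a subunit of the proton pump that acidifies the surface of intercalated cells in the kidney and of ionocytes in the airway. SCLC cells are mostly neuroendocrine (NE), storing hormones in granin-rich vesicles, and NOTCH signaling, read out by Hes1, represses the NE program and accompanies non-NE states. The normal airway holds ciliated cells under FOXJ1 and secretory cells that make secretoglobins, mucins and antimicrobial proteins, and the alveolus holds surfactant-making type 2 cells.

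In the RPR2 section 16313950 gene transcripts fell in 154818 cells and in the CRPR2 section 37348565 fell in 342845 cells, with medians of 100 and 101 transcripts per cell. The sections shared 8 cell names. Each genotype is a single section without replicates, so the report gives no test between genotypes, and every interval below is a 95% interval that covers counting error only. Levels are counts per 1000000 gene transcripts (CPM), summed over the cells of a population in a section, and they are compared within a gene, since probes differ in efficiency. Neighboring cells can share transcripts through the segmentation, and fewer cells of a type and less RNA per cell cannot be told apart in a summed level.

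In the RPR2 section 4683 of 152915 cells past the transcript minimum were gated (3.06%, exact binomial interval 2.98 to 3.15). In the CRPR2 section 26385 of 340609 were gated (7.75%, interval 7.66 to 7.84). The log2 ratio of the shares, CRPR2 over RPR2, was 1.34 (interval 1.29 to 1.38). It depended on which cells were admitted: it was 0.32 (shares of 7.28% and 9.07%) without cells holding 3 or more stromal or immune marker transcripts, 2.01 with a gate sum of 6 or more, and, in alternatives added after the data were seen, 3.83 with Upk3a required and 2.47 without cells holding 2 or more ciliated marker transcripts. Gated cells were deeper than the rest of their section, with medians of 139 and 141 transcripts against 101 over all kept cells in each section. Just outside the gate, 3571 RPR2 and 13774 CRPR2 cells had a gate sum of 3, and just inside it 2090 and 8579 cells had a sum of 4, so that many members lay at the threshold. Cells at a sum of 3 and of 4 had close levels of genes that the rule did not use: Hes1 was at 8638 and 9368 CPM in RPR2 and at 4531 and 5245 CPM in CRPR2, and Prom2 at 1192 and 1091 CPM in RPR2 and at 3907 and 3380 CPM in CRPR2.

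The gate genes were split differently between the sections. Upk3a was detected in 13.2% of gated RPR2 cells (interval 12.2 to 14.2) and in 74.3% of gated CRPR2 cells (73.8 to 74.9). Gabrp was detected in 99.1% and 96.1%. Atp6v1b1 was detected in 63.1% and 44.1%. The most frequent combination in RPR2 was Gabrp with Atp6v1b1 and no Upk3a (57.6%), followed by Gabrp alone (28.8%), whereas in CRPR2 it was Upk3a with Gabrp (42.3%), followed by the cells with all 3 genes (28.2%). Of all gate transcripts, Upk3a made up 5.79% in gated RPR2 cells and 36.0% in gated CRPR2 cells. These genes chose the cells, so the values describe the membership and are not a result about it.

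**Figure D1:**
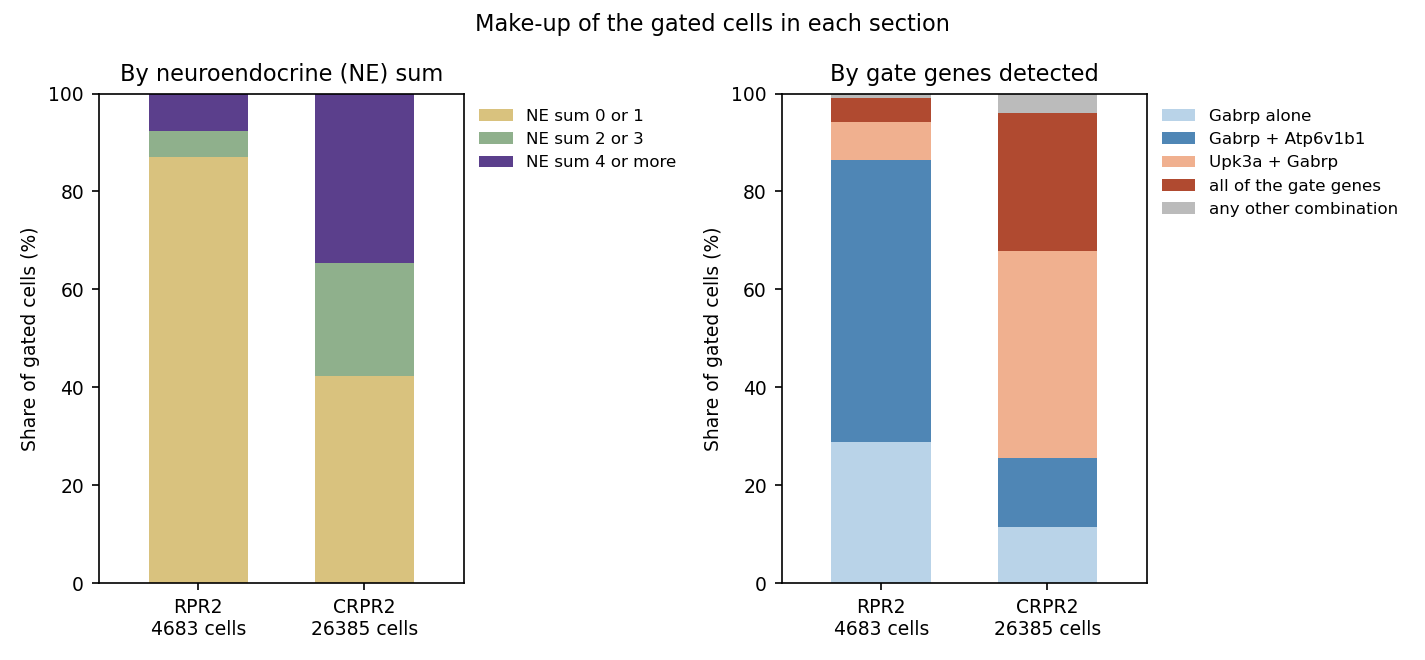
Shares of gated cells (%) in each section, stacked by the summed counts of 5 NE genes (left) and by the combination of gate genes detected (right). Cells with an NE sum of 0 or 1 make up 87.0% of gated RPR2 cells and 42.4% of gated CRPR2 cells, and Gabrp with Atp6v1b1 but no Upk3a is the largest combination in RPR2 and Upk3a with Gabrp in CRPR2.

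The 250 bases upstream of the RefSeq start of each gate gene (GRCm38.p6) are shown because the data turn on transcripts of these genes. Upk3a (ENSMUSG00000022435) starts on chromosome 15, plus strand, with the window chr15:85016891-85017140. Gabrp (ENSMUSG00000020159) lies on chromosome 11, minus strand, with the window chr11:33578958-33579207. Atp6v1b1 (ENSMUSG00000006269) lies on chromosome 6, plus strand, with the window chr6:83742767-83743016. All are written 5′ to 3′ along the gene's strand, and capitals mark matches on either strand to a forkhead core (TGTTTNC), to an E-box (CAGCTG) or to the RBPJ core of NOTCH signaling (GTGGGAA).

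Upk3a: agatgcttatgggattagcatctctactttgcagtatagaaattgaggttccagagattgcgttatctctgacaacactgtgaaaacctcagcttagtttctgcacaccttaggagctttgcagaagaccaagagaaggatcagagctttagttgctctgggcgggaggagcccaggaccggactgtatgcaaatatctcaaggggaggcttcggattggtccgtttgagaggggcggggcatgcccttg

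Gabrp: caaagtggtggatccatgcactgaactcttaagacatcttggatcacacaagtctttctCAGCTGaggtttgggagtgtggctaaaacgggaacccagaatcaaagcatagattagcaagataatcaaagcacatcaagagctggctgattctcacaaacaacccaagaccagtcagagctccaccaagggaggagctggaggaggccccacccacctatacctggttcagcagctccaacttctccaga

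Atp6v1b1: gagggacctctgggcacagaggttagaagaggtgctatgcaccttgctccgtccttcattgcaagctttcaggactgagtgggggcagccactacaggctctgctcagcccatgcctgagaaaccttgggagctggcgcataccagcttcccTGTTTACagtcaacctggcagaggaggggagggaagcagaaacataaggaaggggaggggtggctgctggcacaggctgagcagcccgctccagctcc

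Gabrp held 1 CAGCTG and Atp6v1b1 held 1 match to TGTTTNC, and Upk3a held none of the motifs in this window. Of 32851 RefSeq promoter windows of this length, 17.8% held TGTTTNC, 13% held CAGCTG and 5.42% held GTGGGAA, so a match in 1 of these promoters is common, and it describes letters and not a binding site.

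The working name of this population, tumor-like cells with uroplakin and ionocyte genes, was checked against its markers and did not hold in the RPR2 section. There 41.3% of gated cells (interval 39.9 to 42.7) had 4 or more transcripts of the ciliated markers Foxj1, Ccdc153 and Tmem212, and 38.7% (37.3 to 40.1) had 4 or more of the secretory airway markers Reg3g, Retnla and Scgb3a1. In the CRPR2 section the same shares were 3.88% and 34.0%, and these markers do not show that the name holds there. Summed over the 3 ciliated markers, 26702 CPM lay in gated RPR2 cells and 2949 CPM in gated CRPR2 cells, and all kept cells held 9272 and 2519 CPM. The cells are therefore called gated cells here, and are described by their leading genes. Ionocyte identity could not be checked, since the defining genes Foxi1, Cftr and Ascl3 were not on the panel. The other measured subunit gene of the proton pump, Atp6v0d2, was at 139 and 249 CPM against 639 and 1315 CPM over all kept cells. In NE cells without gate transcripts it was at 171 and 136 CPM, above the gated cells in RPR2 and below them in CRPR2. Car2, of the same gene list, was at 503 and 1551 CPM in gated cells against 219 and 378 CPM in those NE cells. Cells with an NE sum of 0 or 1 and no gate transcript held 1349 and 1456 CPM of Car2. That was above the gated cells in RPR2 and slightly below them in CRPR2. The uroplakin genes Upk1b and Upk1a differed between the sections in the direction opposite to Upk3a, which the rule used: Upk1b was at 1672 CPM in gated RPR2 cells and 111 CPM in gated CRPR2 cells, and Upk1a at 467 and 102 CPM. Upk3b was at 4.34 and 4.51 CPM, under the highest control probe of each section (9.93 and 8.43 CPM).

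Prom2, which encodes prominin 2 of membrane protrusions and was listed as a marker of these cells, was lower in them than in NE cells without gate transcripts. Its level was 1038 CPM in gated RPR2 cells and 2868 CPM in gated CRPR2 cells. NE cells with no gate transcript held 5979 and 6118 CPM. The log2 ratio was -2.53 for RPR2 (interval -2.64 to -2.41) and -1.09 for CRPR2 (-1.12 to -1.06). The gated cells span all NE sums, and those with an NE sum of 4 or more held 3581 and 4200 CPM. Over all kept cells Prom2 was at 742 CPM in RPR2, below the gated cells, and at 3570 CPM in CRPR2, above them.

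Gate transcripts were also counted in cells chosen by markers of other types. How many of them were the cell's own and how many came from neighboring cells was not tested. Of cells with 4 or more endothelial marker transcripts, 1.82% in RPR2 and 7.87% in CRPR2 held any gate transcript, and of cells with 4 or more T cell transcripts 2.86% and 5.17%. Fewer reached the gate sum of 4. Of cells with 4 or more transcripts of the endothelial markers Pecam1, Kdr and Tie1, 0.199% in RPR2 and 1.10% in CRPR2 passed the gate, at median depths of 119 and 125 transcripts. Of cells with 4 or more T cell transcripts (Cd3d, Cd3e, Cd8a), 0.124% and 0.320% passed it. Ciliated-marker cells passed it at 13.7% and 15.6%, and secretory-marker cells at 25.8% and 40.9%. The endothelial markers summed to 3398 and 2631 CPM in gated cells, mostly Kdr, against 23914 and 7789 CPM over all kept cells, while T cell markers summed to 188 and 56.8 CPM against 992 and 590 CPM, and macrophage markers to 435 and 863 CPM against 3526 and 4046 CPM. Neutrophil markers summed to 768 and 915 CPM, mostly Ly6g, against 1691 and 1009 CPM over all kept cells and 103 and 137 CPM in NE cells with an NE sum of 4 or more and no gate transcript.

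The sum of 5 NE genes (Chga, Chgb, Scg5, Snap25 and Celf3, of the secretory vesicle, the synapse and neuronal splicing) divides the gated cells. In RPR2, 4073 gated cells (87.0%) had an NE sum of 0 or 1, 255 (5.45%) had 2 or 3, and 355 (7.58%) had 4 or more. In CRPR2 the numbers were 11188 (42.4%), 6062 (23.0%) and 9135 (34.6%). The log2 ratio of the shares with an NE sum of 4 or more was 2.19, and was 0.08 (interval -0.11 to 0.28) among gated cells that held Upk3a, an alternative added after the data were seen, where the shares were 37.0% and 39.1%. The interval of the second ratio spans 0. Without cells holding 2 or more ciliated marker transcripts, also added later, the ratio was 0.96.

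Gated cells were set against the NE cells of the same section that had an NE sum of 4 or more and no gate transcript, 10048 cells in RPR2 and 98359 in CRPR2. Of 275 genes with at least 100 CPM on a side, other than the 8 genes of the rule, 78 (28.4%) were at least 2-fold higher in gated cells in both sections and 51 (18.5%) at least 2-fold lower. The median log2 ratio over these genes was -0.0037 in RPR2 and 0.083 in CRPR2. The higher genes were led by those of airway secretory cells. Tff2, a trefoil peptide of mucus, was at 9290 CPM in gated RPR2 cells and 160 in the NE cells, and at 1643 and 77.0 CPM in CRPR2. Spdef, a goblet cell transcription factor, was at 991 and 54.2 CPM in RPR2 and at 912 and 51.1 CPM in CRPR2. The gel-forming mucin gene Muc5b was at 11377 and 344 CPM in RPR2 and at 5442 and 317 CPM in CRPR2. The smallest log2 ratio among these was 4.10, that of Muc5b in CRPR2. Muc5ac, Agr2, Reg3g, Retnla, Scgb3a1, Cyp4b1 (a monooxygenase of club cells), Runx1 (a transcription factor), AU021092 and the ciliary gene Ccdc153 completed the 12 genes with the largest ratios, with log2 ratios from 3.54 (Scgb3a1 in CRPR2) to 5.63 (Cyp4b1 in RPR2).

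Of the 22 mucin and secretory genes listed, 13 passed the CPM floor, and 11 were at least 2-fold higher in gated cells and 0 lower, beside 28.4% and 18.5% of all genes tested, with median log2 ratios of 4.03 in RPR2 and 3.91 in CRPR2. The NOTCH target Hes1 was at 9212 CPM in gated RPR2 cells against 1228 in the NE cells, and at 6201 against 1150 CPM in CRPR2, a log2 ratio of 2.91 (2.82 to 2.99) and 2.43 (2.40 to 2.46). The other NOTCH targets on the panel, Hey1 and Hey2, did not pass 2-fold in both sections. Of 12 genes of apical epithelium and junctions, 4 were higher, a share near the 28.4% of all genes, and 1, Prom2, was lower, with a median of -0.16 in each section. Krt19, a keratin of simple epithelium, was at 19417 against 4684 CPM in RPR2 and 15427 against 2903 CPM in CRPR2. Krt8 differed by less than 2-fold. All 3 type 2 cell markers on the panel, Sftpd, Lamp3 and Slc34a2, were higher, with medians of 2.35 and 3.43. The 7 tested NE and neuronal genes outside the rule were all at least 2-fold lower in gated cells, with medians of -3.47 and -1.47. Among the genes with the largest ratios on the lower side were Gria2, a glutamate receptor subunit (347 against 6341 CPM in RPR2, 1625 against 6308 CPM in CRPR2), Gad1, which makes GABA (289 against 4567, and 573 against 2455 CPM), Col8a1, a short-chain collagen (246 against 4636, and 991 against 5606 CPM), and Vwf, the von Willebrand factor (1174 against 19593, and 7341 against 24205 CPM). Hrg, Capns2, Kl, Kcnj1, Arpp21, Dbpht2, A330076H08Rik and Ly6h made up the rest of the 12.

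**Figure D2:**
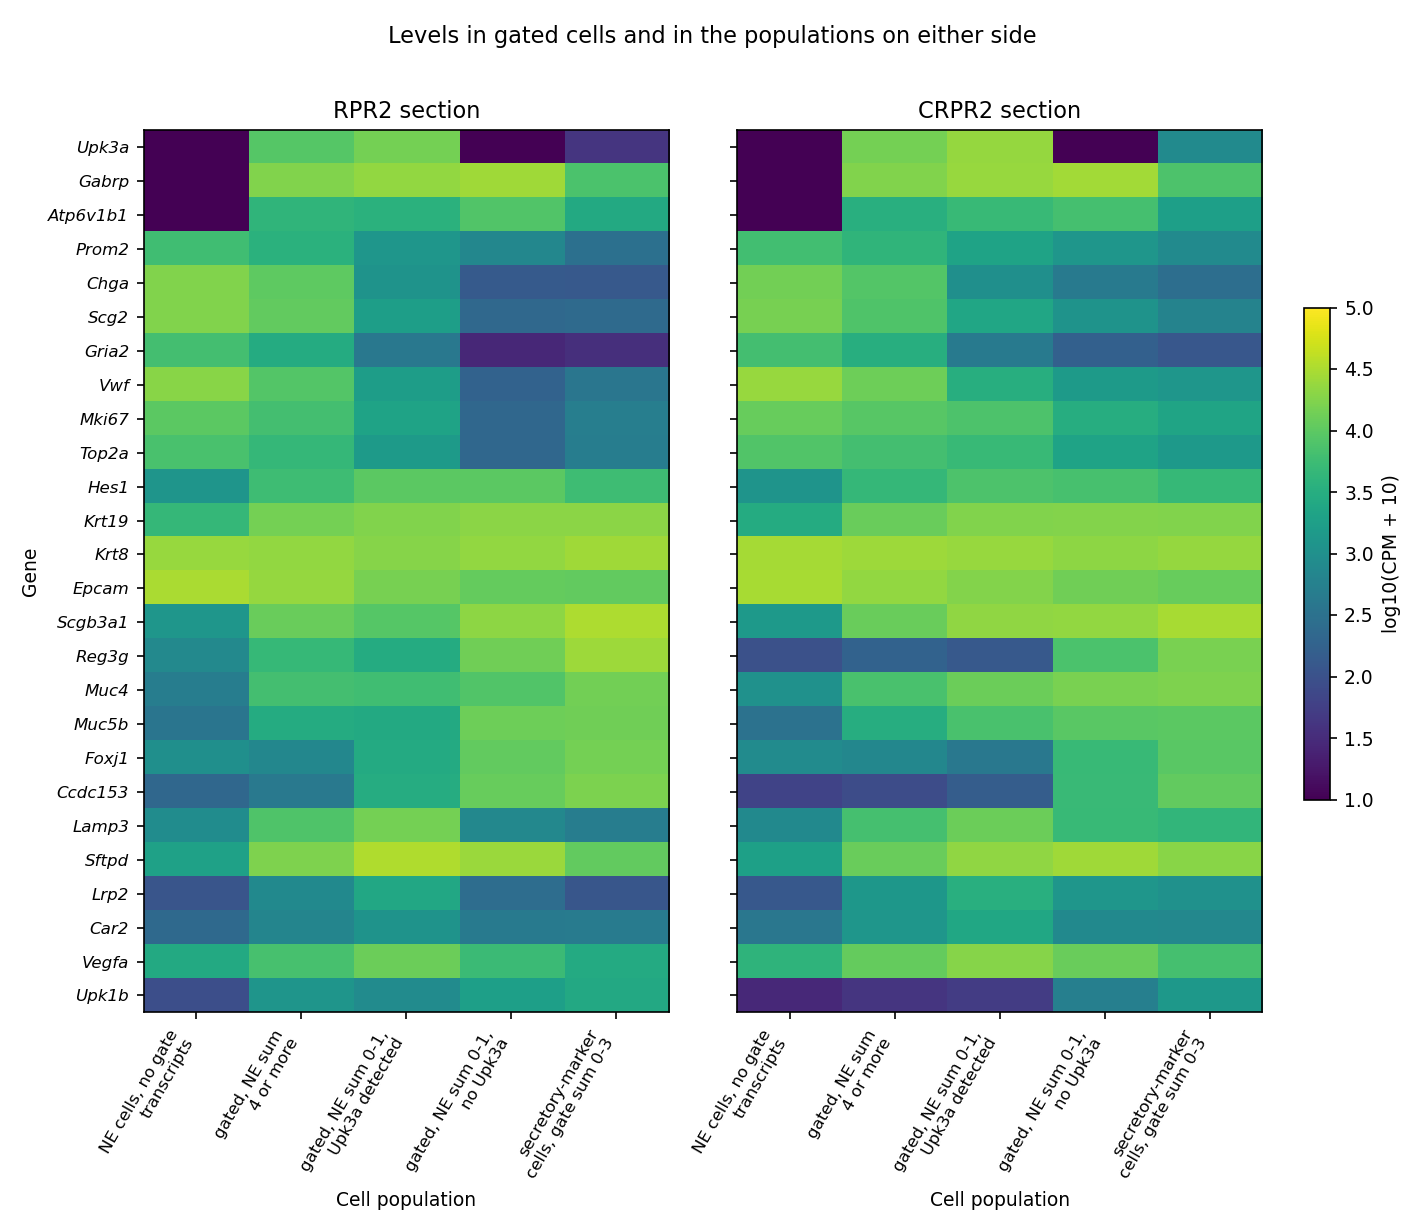
Levels, as log10(CPM + 10), of selected genes (rows) in gated cells and the populations on either side (columns) of the RPR2 section (left) and the CRPR2 section (right). Gria2 and Vwf fall from the NE cells on the left of each panel to the gated cells with an NE sum of 0 or 1, and Hes1, Krt19 and Muc5b are higher in the gated cells than in the NE cells without gate transcripts.

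Among gated cells, those with an NE sum of 4 or more were compared with those of 0 or 1. Of 274 genes tested, 40 (14.6%) were at least 2-fold higher in both sections and 48 (17.5%) at least 2-fold lower, and the median log2 ratio was 0.19 in RPR2 and -0.41 in CRPR2. The balance depended on the cells admitted. With Upk3a required 35 genes were higher and 17 lower, and without cells holding 2 or more ciliated marker transcripts 38 and 28. A gate sum of 6 or more gave 34 and 27, and a gate sum of 3 or more gave 44 and 66. The genes with the largest ratios on the higher side were Gria2 (log2 6.14 in RPR2 and 3.30 in CRPR2), Gad1, Col8a1, Mapk10, Ly6h, Actl6b, Vwf, Prox1, Wnt3, Scin, Ptprn2 and Pnmal2. All 7 NE and neuronal genes tested were higher, with medians of 5.05 and 2.04. Of 7 cell cycle genes, 1 passed 2-fold in both sections, with medians of 4.02 in RPR2 and 0.72 in CRPR2. The lower side was led by ciliary genes. Ccdc153 was at 401 CPM in NE-high and 11260 CPM in NE-low gated cells of RPR2, and at 74.7 and 2123 CPM in CRPR2. Fam183b, Tmem212, 1110017D15Rik and Dynlrb2, all of motile cilia or airway cells, were lower too, as were Tff2, the water channel gene Aqp3, the basal keratin gene Krt5 (listed at 0 transcripts in the NE-high cells of RPR2, where 3 transcripts would be 46.3 CPM), Timp4, Sfrp1 and the smooth muscle genes Cnn1 and Myh11. Of the mucin and secretory genes 8 of 13 were lower and 0 higher, but Scgb3a1 and Hes1 were not past 2-fold: NE-high gated cells still held 11994 and 12244 CPM of Scgb3a1 and 5650 and 4597 CPM of Hes1, against 1264 and 1468 CPM of Scgb3a1 and 1228 and 1150 CPM of Hes1 in the NE cells without gate transcripts.

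NE-high gated cells lay between the NE-low gated cells and the NE cells without gate transcripts for most genes. Of the genes that differed at least 2-fold between those end populations, 170 of 215 (79.1%) in RPR2 and 168 of 182 (92.3%) in CRPR2 had a level in the NE-high gated cells between the other 2. The NE-high gated cells share the gate with the first end and the NE sum with the second. The share to be expected from that choice of cells was not computed, so these shares describe the populations only. In RPR2, 17 genes were above both, among them Car2 (carbonic anhydrase 2), Cldn2 (a pore-forming claudin), Vegfa, Sox9 and Lrp2 (megalin), and in CRPR2 1 gene was, Cldn11. Below both were 28 genes in RPR2 and 13 in CRPR2, Foxj1, Cnn1 and Myh11 in each of them and Krt5 in RPR2. Prom2 and Hes1 were also followed along the gate sum in cells with an NE sum of 4 or more. In CRPR2, Prom2 was at 6118 CPM at a gate sum of 0, 5432 at 3, 4984 at 4 and 2845 at 10 or more. In RPR2 it was at 5979, 4284, 3616 and 2319 CPM. Hes1 went the other way, from 1150 through 2837 and 3438 to 6461 CPM in CRPR2 and from 1228 through 3532 and 4454 to 7167 CPM in RPR2. The levels differed between bins on both sides of the threshold of 4. Depth moved with the gate sum as well, from a median of 101 to 227 transcripts in CRPR2 and from 105 to 244 in RPR2, and the top bin of RPR2 held 20 cells. The part of depth, and of transcripts or nuclei of neighboring cells, in these gradients was not tested.

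**Figure D3:**
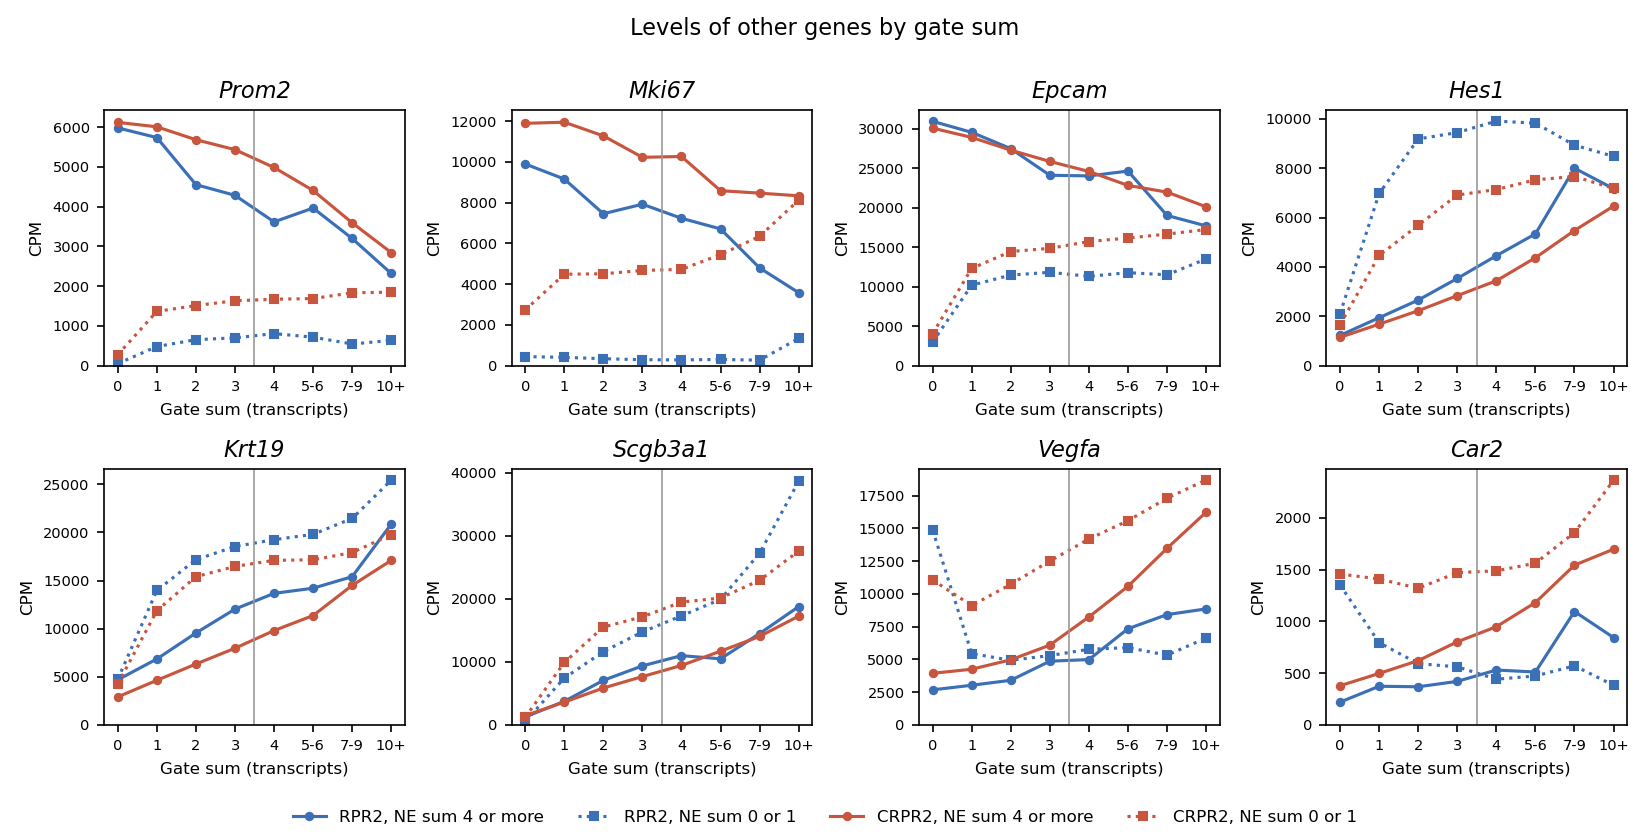
CPM (y axis, from 0) of 8 genes outside the rule against the gate sum (x axis, binned), for cells with an NE sum of 4 or more (circles, solid) and of 0 or 1 (squares, dotted) in each section. The vertical line marks the gate. In the NE-high cells Prom2 falls and Hes1, Krt19, Scgb3a1 and Vegfa rise from the lowest to the highest bin in both sections, and in the NE-low cells of CRPR2 Prom2 lies between 1365 and 1849 CPM from a gate sum of 1 on. In the NE-low cells of RPR2 Vegfa is highest at a gate sum of 0.

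NE-low gated cells were then divided by Upk3a, a split chosen after the data were seen: 254 cells with and 3819 without Upk3a in RPR2, and 7018 and 4170 in CRPR2. Of 277 genes, 36 (13%) were at least 2-fold higher in both sections in the cells with Upk3a and 28 (10.1%) at least 2-fold lower, with medians of 0.38 and 0.0082. Lamp3, a lysosomal membrane gene of alveolar type 2 cells, was at 14702 CPM with and 738 CPM without Upk3a in RPR2, and at 12774 and 4923 CPM in CRPR2. The other type 2 cell markers did not pass 2-fold in both sections: Slc34a2 was at 16842 and 3628 CPM in RPR2 but at 16952 and 16410 CPM in CRPR2, and Sftpd at 32795 and 24963 CPM, and at 21792 and 26726 CPM. Lrp2 was at 2529 and 262 CPM in RPR2 and at 3271 and 1234 CPM in CRPR2. Car2 was at 1112 and 429 CPM, and at 2382 and 776 CPM. Rhcg, an ammonia transporter of intercalated cells in the kidney, had the largest smaller ratio, at 167 and 14.5 CPM in RPR2 and 384 and 11.2 CPM in CRPR2, a level that rests on 6 transcripts in the RPR2 cells with Upk3a. All 7 NE and neuronal genes tested were higher with Upk3a although the NE sum was 0 or 1 on both sides, with medians of 3.33 and 1.18. Of the 7 cell cycle genes 5 were at least 2-fold higher with Upk3a and 0 lower, Mki67 being at 2112 and 204 CPM in RPR2 and at 7742 and 3128 CPM in CRPR2. On the lower side stood the 3 ciliated markers, Reg3g (2835 against 13713 CPM in RPR2, 121 against 7434 CPM in CRPR2), Tff2, Krt5, Uox and Timp4. Krt5 and Uox were at 0 transcripts in the RPR2 cells with Upk3a, where 3 transcripts would be 83.4 CPM. Hes1 did not differ between the sides in RPR2 by more than its interval (log2 0.01, -0.15 to 0.16) and was 0.17 higher with Upk3a in CRPR2 (0.12 to 0.23).

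NE-low gated cells were also set against cells with an NE sum of 0 or 1, a gate sum of 0 to 3 and 4 or more transcripts of Reg3g, Retnla and Scgb3a1 (4565 cells in RPR2, 7948 in CRPR2). These 3 genes chose the reference and were left out with the 8 of the rule. Of 299 genes, 12 (4.01%) were at least 2-fold higher in the gated cells in both sections and 87 (29.1%) lower, with medians of -0.58 and -0.49. They included Kng2, Ager, Iyd, Id1, Lrp2, Lamp3, Sfta2, Slc4a4, Prom2, Ly6g6c and Vegfa. Ager, the receptor that marks alveolar type 1 cells, was at 1955 CPM in the gated and 541 CPM in the reference cells of RPR2, and at 6541 and 2356 CPM in CRPR2. Sfta2, a surfactant-associated gene, was at 1606 and 338 CPM, and at 3267 and 1494 CPM. Slc4a4, a sodium bicarbonate cotransporter gene, was at 2313 and 1065 CPM, and at 3693 and 1459 CPM. Of the macrophage markers 3 of the 4 tested were lower, of the fibroblast markers 6 of 6 and of the mural cell markers 0 of 2, beside 29.1% of all genes. The largest ratios on the lower side were those of Folr2 (15.3 against 2003 CPM in RPR2, 11.6 against 1180 CPM in CRPR2), Car3, Mmp9 and F13a1. Retnla is also a macrophage gene, and the macrophage content of the reference cells was not tested further.

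A cell was counted as cycling when it kept 1 or more transcripts of Mki67 or Top2a in a random draw of 50 of its transcripts (thinning), which left out 17 gated RPR2 and 259 gated CRPR2 cells. The cycling share was 5.51% of gated cells in RPR2 (interval 4.87 to 6.20) and 34.9% in CRPR2, or 2.66 on the log2 scale (2.48 to 2.85), and 1.58 without cells holding 2 or more ciliated marker transcripts. At full depth 11.1% and 58.7% of the cells had such a transcript. In endothelial-marker cells with an NE sum of 0 or 1 the thinned shares were 1.03% and 8.68%, a log2 ratio of 3.07 (2.92 to 3.23). In ciliated-marker cells they were 1.07% and 3.74%, a log2 ratio of 1.81 (1.48 to 2.15), and in secretory-marker cells 2.74% and 11.4%, a log2 ratio of 2.05 (1.77 to 2.33). These reference cells all had an NE sum of 0 or 1, whereas the ratio of 2.66 was taken over gated cells of any NE sum. The like set, NE-low gated cells, had a ratio of 3.77 (3.45 to 4.10), from shares of 2.05% and 27.9%. That ratio lay above those of the endothelial-marker, ciliated-marker and secretory-marker cells. The part of free or neighboring transcripts in these ratios was not tested. NE-high gated cells were cycling at 31.3% in RPR2 (26.5 to 36.4) and 41.5% in CRPR2, a log2 ratio of 0.41 (0.14 to 0.69), and the NE cells without gate transcripts at 44.8% and 51.9%. Gated cells with Upk3a were cycling at 22.8% and 38.9%, a log2 ratio of 0.77 (0.53 to 1.02). NE-low gated cells without Upk3a were cycling at 1.50% in RPR2 and 16.2% in CRPR2, and those with Upk3a at 10.3% (6.85 to 14.8) and 34.9%.

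**Figure D4:**
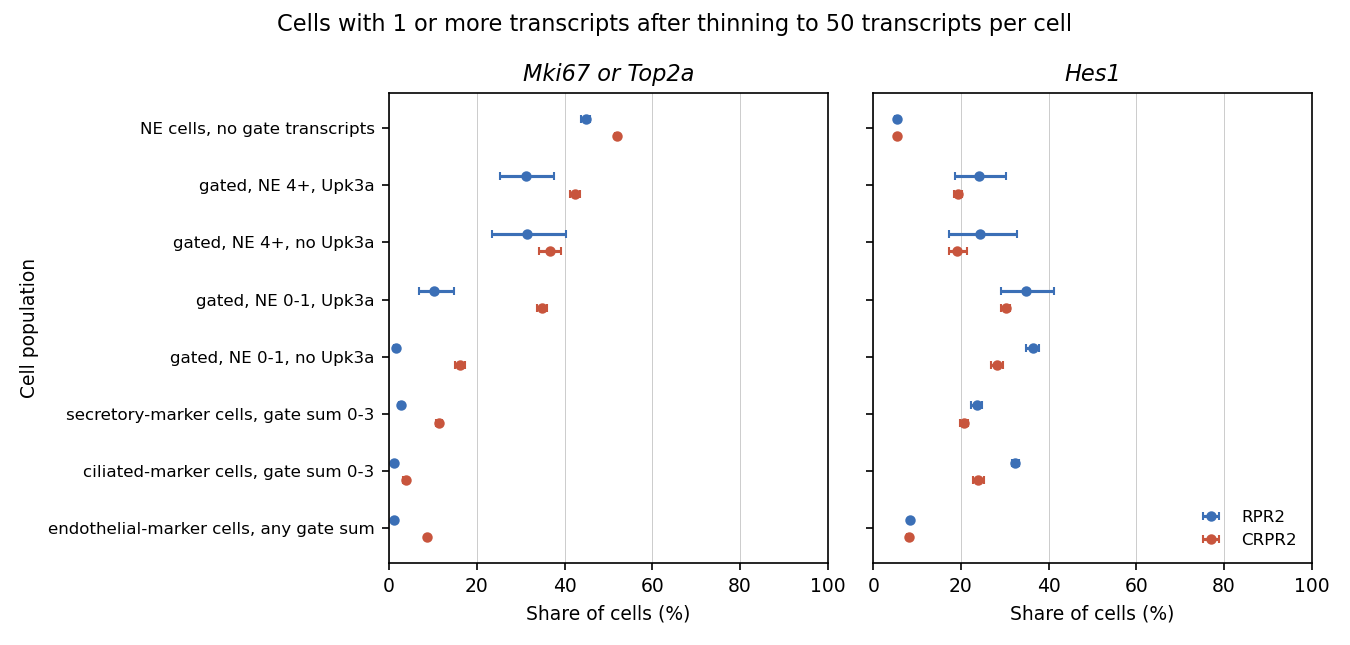
Shares of cells (%, points, with exact binomial 95% intervals) with 1 or more transcripts of Mki67 or Top2a (left) and of Hes1 (right) after thinning, for 8 populations of each section. Cycling shares lie at 1.50% (RPR2) and 16.2% (CRPR2) for NE-low gated cells without Upk3a, and the CRPR2 point lies to the right of the RPR2 point for Mki67 or Top2a in each of the populations drawn.

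The contrast of the study, CRPR2 against RPR2, was made within the gated cells. Of 298 genes, 97 (32.6%) were at least 2-fold higher in CRPR2 and 54 (18.1%) at least 2-fold lower, and the median log2 ratio was 0.37, against which the ratios below are to be read. In the NE cells without gate transcripts the same contrast gave 18 (6.57%) higher and 24 (8.76%) lower of 274 genes, with a median of 0.02, and there too Gpa33 was higher (2159 against 719 CPM) and Reg3g (88.1 against 760 CPM) and Ccdc153 (52.7 against 210 CPM) lower. Genes of the cell cycle and of NE cells were among the higher. Mki67 was at 7555 CPM in CRPR2 and 1071 CPM in RPR2, Top2a at 5035 and 803 CPM, and E2f1, a cell cycle transcription factor, at 3221 and 434 CPM. All 7 cell cycle genes and all 7 tested NE and neuronal genes outside the rule passed 2-fold, with medians of 2.48 and 1.98. Gpa33, an epithelial surface antigen, had the largest ratio (883 against 57.8 CPM, log2 3.93, interval 3.48 to 4.42), followed by Cstdc4, Cldn11, Muc3a, E2f1, Muc16, Mki67, Kng2, Muc2, Top2a, Vwf and Cenpf. The ciliated markers were among the lower. Foxj1 was at 1240 CPM in CRPR2 and 9114 CPM in RPR2, and Ccdc153 at 884 and 9703 CPM. Upk1b had the largest ratio (111 against 1672 CPM, log2 -3.91, -4.07 to -3.75), and Fam183b, Ccdc153, 1110017D15Rik, Tmem212, Reg3g, Timp4, Dynlrb2, Cnn1, Foxj1 and Abca13 were among the genes next to it. Of the mucin and secretory genes 4 of 15 were higher and 5 lower, beside 32.6% and 18.1% of all genes tested. Scgb3a1 and Muc1 were within 2-fold.

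Restricted to gated cells with Upk3a (617 in RPR2, 19611 in CRPR2), an alternative added after the data were seen, the contrast named fewer genes: of 295, 24 (8.14%) were at least 2-fold higher in CRPR2 and 46 (15.6%) lower, with a median of -0.08. Leaving out the cells with 2 or more ciliated marker transcripts instead gave 39 higher and 50 lower. In the cells with Upk3a 0 of the 7 NE and neuronal genes and 1 of the 7 cell cycle genes, Ezh2, passed 2-fold. Mki67 was at 8559 CPM in CRPR2 and 4441 CPM in RPR2 (log2 0.95, 0.81 to 1.09). Sox9, a transcription factor of lung progenitors, was at 1789 and 732 CPM (1.29, 0.95 to 1.65), and Areg, an EGFR ligand, at 1671 and 546 CPM (1.61, 1.22 to 2.03). Kng2 was at 740 and 51.5 CPM, the latter from 5 transcripts. The 3 ciliated markers and Reg3g were still lower, Reg3g at 107 against 2782 CPM and Ccdc153 at 72.0 against 1401 CPM. The sections also differ in how many cells of each type they hold, and genotype, animal, tumor content and section cannot be told apart with 1 section each.

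**Figure D5:**
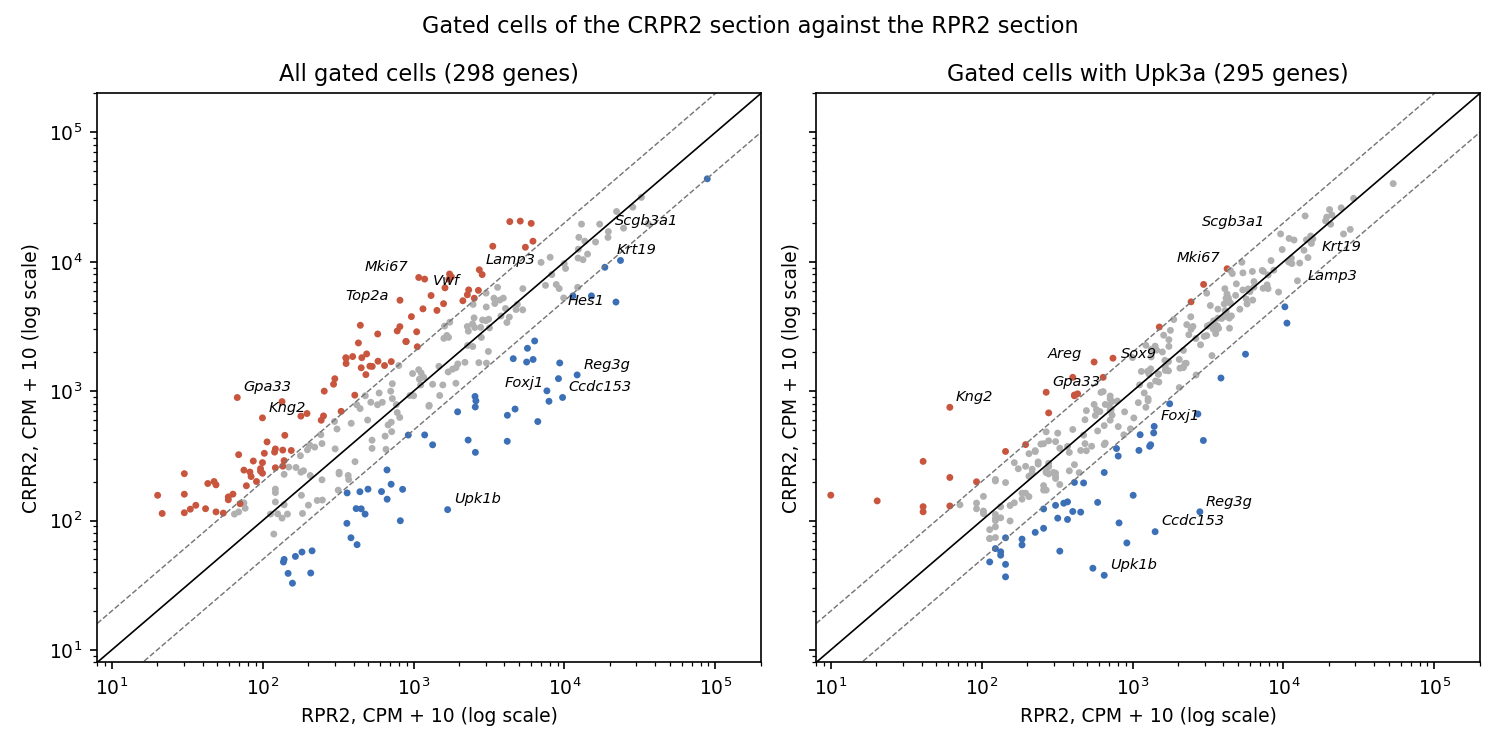
CPM + 10 in the RPR2 section (x axis, log scale) against the CRPR2 section (y axis, log scale) for each gene tested, in all gated cells (left, 298 genes) and in gated cells with Upk3a (right, 295 genes). Red points are at least 2-fold higher and blue points at least 2-fold lower in CRPR2. The solid line marks equal levels and the dashed lines 2-fold, and 97 genes lie above and 54 below the dashed lines on the left, and 24 and 46 on the right.

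The floxed genes were measured in the gated cells as well. Rb1 had a level of 2515 CPM in the RPR2 and 5221 CPM in the CRPR2 section, lower than in the NE cells without gate transcripts (11123 and 12601 CPM). Trp53 was at 769 and 674 CPM against 754 and 894 CPM. The place of the probes relative to the deleted exons is not given in the sources used here, so these levels check neither deletion, and Rbl2 and Cracd were not on the panel. Of the 6 YAP and non-NE genes listed, 0 were higher and 1 lower in gated cells than in the NE cells without gate transcripts, where 28.4% and 18.5% of all genes tested were, and 3 were higher in gated cells of CRPR2 than of RPR2, where 32.6% of all genes were. Restricted to gated cells with Upk3a, 0 of the 6 were higher in CRPR2, where 8.14% of all genes were. Of 10 signaling target genes 8 passed the floor and 2 were higher in gated cells in both sections, a share near the 28.4% of all genes tested, among them Vegfa at 6171 against 2671 CPM in RPR2 and 14421 against 3934 CPM in CRPR2. Cells with an NE sum of 0 or 1 and no gate transcript held 14877 CPM of Vegfa in RPR2 and 11056 CPM in CRPR2. Against those cells Vegfa was lower in gated cells of RPR2 and higher in gated cells of CRPR2. Of the 8 tuft cell genes listed, 0 were on the panel.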

How the data were processed

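Members and gene lists were chosen with earlier results of these data known, and the division by Upk3a and the removal of ciliated cells were added after the data were seen. The authors deposited raw transcript counts per gene and segmented cell, with lists of features and cell names, from Xenium In Situ on 1 RPR2 and 1 CRPR2 lung section, with cells segmented by nuclear expansion. Seurat 4.4.0 stands in the submitters' processing notes. Control probes (20 beside 479 genes) reached 9.93 CPM in RPR2 and 8.43 CPM in CRPR2.

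Cells under 20 gene transcripts were left out (1903 in RPR2, 2236 in CRPR2), and no doublet caller was run. Counts were summed per population and scaled to CPM. Genes reaching 100 CPM on a side were compared, and called at 2-fold, in both sections where populations were compared within them. Intervals at 95% were exact binomial for shares and exact conditional for ratios. Shares were compared after thinning to 50 transcripts (seed 1). The ciliated and endothelial reference cells had an NE sum of 0 or 1 and 4 or more marker transcripts, the ciliated ones with a gate sum of 0 to 3 and the endothelial ones with any. Genes were named as the 12 largest ratios each way, ranked by the smaller section ratio, with the markers and listed groups. Some genes are not reported here. The comparison code was tested on simulated data. Computation used numpy 2.4.6 and scipy 1.17.1 under Python 3.11.15, tables pandas 2.3.3 and plots matplotlib 3.10.9. The alternatives varied the gate, the NE sum, the transcript minimum, the CPM floor, the thinning depth and the marker exclusions.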

Additional observations from a re-analysis of the deposited data

Results flagged for a closer look

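In the comparisons made within each section, 2 genes past the CPM floor were at least 2-fold higher in one section and at least 2-fold lower in the other. Other genes differed in sign with a ratio under 2-fold in at least 1 section. The difference between sections was not tested. Cd300lf, an inhibitory receptor of myeloid cells, was higher in NE-high than in NE-low gated cells of RPR2 (log2 2.99, from 7 and 8 transcripts) and lower in CRPR2 (-1.19, from 85 and 193 transcripts). Serpinb11, a serpin gene, was higher in NE-low gated cells with Upk3a than in those without it in RPR2 (log2 3.05, from 14 and 26 transcripts) and lower in CRPR2 (-2.11, from 24 and 69 transcripts). The RPR2 values rest on few transcripts.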

How the results depend on the processing

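A ratio was taken to stay when it lay in the 95% interval of the reported one, and a count of genes when the counts were within 1.5 times of each other. Under other settings, 35 values stayed and 10 moved, and of those added after the data were seen, 3 stayed and 9 moved. The log2 ratio of the gated share (1.34) was 1.13 with a gate sum of 3 or more, 2.01 with 6 or more, 1.63 with at least 2 of the 3 gate genes, 0.32 without cells holding 3 or more stromal or immune marker transcripts, 1.56 after thinning to 100 transcripts, 3.83 with Upk3a required and 2.47 without cells holding 2 or more ciliated marker transcripts. The ratio of the share with an NE sum of 4 or more (2.19) was 1.78 with a gate sum of 6 or more, 2.00 with 2 gate genes, 0.082 with Upk3a and 0.96 without ciliated cells. The cycling ratio (2.66) was 2.38 with a gate sum of 6 or more, 2.41 without thinning, 2.06 with Pclaf, 0.77 with Upk3a and 1.58 without ciliated cells. Genes past 2-fold between the sections (151) numbered 70 with Upk3a and 89 without ciliated cells, and between NE-high and NE-low gated cells (88) 52 with Upk3a. Under the remaining settings these counts ran from 126 to 166 and from 61 to 110. Genes past 2-fold between gated cells and NE cells without gate transcripts (129) numbered 114 to 137. The cause was not tested. No paired analysis was possible because there is 1 section per genotype and the labels give no replicate numbers. Few cells limit the RPR2 sub-groups, of which the NE-high gated cells number 355.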

Other observations

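Msln, which encodes the mesothelial surface protein mesothelin, was at 2554 CPM in gated RPR2 cells and 745 CPM in gated CRPR2 cells, and both mesothelial genes that passed the floor were at least 2-fold higher in gated cells than in NE cells without gate transcripts in both sections. Ly6g, a neutrophil marker, was at 713 and 866 CPM in gated cells against 46.2 and 81.7 CPM in those NE cells, but the other neutrophil markers were not higher in both sections, Csf3r being at 34.7 and 38.8 CPM against 43.5 and 40.5 CPM and Cxcr2 at 20.2 and 10.5 CPM against 13.3 and 15.1 CPM. Of 6 tumor suppressor pathway genes, 0 were higher and 2 lower in gated cells than in those NE cells, beside 28.4% and 18.5% of all genes tested. Ager was at 2262 CPM in gated RPR2 cells and 5550 CPM in gated CRPR2 cells, against 11531 and 4755 CPM over all kept cells.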
